A study of Mus musculus with 16 samples.

Results

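Calcium/calmodulin-dependent protein kinases (CaM kinases) and the inhibitors of CaMKII are described here in neural stem cells (NSC) with and without a knockdown of the lncRNA *RUS*. The group consists of 8 genes, found by their symbols among the 55471 lines of the deposited expression table of each day: the CaMKII subunits *Camk2a*, *Camk2b*, *Camk2d* and *Camk2g*, the CaMKII inhibitors *Camk2n1* and *Camk2n2*, the kinase *Camk4* and its relative *Camkv*. All 8 were found in both tables and had a mean above the minimum of 0.1 TPM set for testing. RNA-seq libraries came from NSC of the cortex of C57BL/6 mouse embryos at E15 to E16. The cells carried a lentivirus for a scrambled shRNA (labelled scr shRNA, genotype control, here shRNA CON) or for an shRNA against *RUS* (labelled RUS shRNA, genotype RUS KD, here shRNA RUS). RNA was taken on day 5 or day 7 after seeding, and differentiation in Neurobasal medium started on day 5 in all groups. Each shRNA was represented by 4 libraries on each day, 16 in all. According to the study's methods, tissue of embryos of both sexes was pooled, the cells could be passaged before use, virus was added after seeding, and a single shRNA sequence was directed at *RUS*. The labels do not state whether replicates were separate cultures, so that the p-values below measure the spread among these libraries, which may be technical.

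CaMKII is a large ring of catalytic subunits that is opened by calcium-loaded calmodulin and can stay active after the calcium signal has passed, because neighbouring subunits phosphorylate each other. The alpha subunit (*Camk2a*) and the beta subunit (*Camk2b*) are the forms typical of neurons, where they act at synapses in long-term potentiation, and *Camk2a* is widely used as a marker of mature excitatory neurons. The delta (*Camk2d*) and gamma (*Camk2g*) subunits are found in many tissues. *Camk2n1* and *Camk2n2* encode small proteins that bind to the active kinase and block it. CaMKIV, the product of *Camk4*, works in the nucleus, where it phosphorylates CREB, and *Camkv* encodes a kinase-like protein of synaptic vesicles that lacks kinase activity.

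A promoter window from RefSeq (GRCm38.p6) was matched for 4 of the 8 genes, *Camk2b*, *Camk2d*, *Camk2n2* and *Camkv*. The 250 bases upstream of the start in this RefSeq table are printed for *Camk2b* (chr11:6065749-6065998, minus strand) and *Camk2d* (chr3:126596701-126596950, plus strand), since these CaMKII subunit genes were both raised by the knockdown on day 7 and these windows hold no annotated exonic base. Both windows lie within the gene as GENCODE bounds it, downstream of the outermost start in that annotation. Capitals mark the GC box, the letters GGGCGG on either strand.
Camk2b: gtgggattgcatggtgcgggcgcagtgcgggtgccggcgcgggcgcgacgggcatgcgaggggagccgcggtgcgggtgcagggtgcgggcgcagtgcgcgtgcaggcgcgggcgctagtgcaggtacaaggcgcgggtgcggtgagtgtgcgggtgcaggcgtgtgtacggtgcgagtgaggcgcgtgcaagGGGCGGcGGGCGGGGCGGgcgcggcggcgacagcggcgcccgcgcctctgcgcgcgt
Camk2d: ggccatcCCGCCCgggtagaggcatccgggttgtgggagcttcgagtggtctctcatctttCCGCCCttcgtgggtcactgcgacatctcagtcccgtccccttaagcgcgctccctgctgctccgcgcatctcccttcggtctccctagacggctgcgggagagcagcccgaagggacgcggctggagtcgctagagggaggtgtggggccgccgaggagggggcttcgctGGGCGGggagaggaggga
Both windows hold 3 GC boxes, of which a pair overlap in that of *Camk2b*, and their GC content is 78.4% for *Camk2b* and 68.4% for *Camk2d*. A GC box is common, with at least 1 in 32.7% of the 32851 promoter windows of the same length. Neither window holds the half-site TGACG of the cAMP response element (in 17.8% of windows), its full form TGACGTCA (in 1.55%) or the E-box CACGTG (in 6.02%) on either strand. These matches describe the letters only.

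The 8 genes are spread over 7 chromosomes (GENCODE vM21, GRCm38). *Camk2d* lies on chromosome 3 (126596302 to 126846326, plus strand) and *Camk2b* on chromosome 11 (5969644 to 6066362, minus strand). *Camk2g* lies on chromosome 14 (20734875 to 20794088, minus strand), *Camk2n1* on chromosome 4 (138454314 to 138460123, plus strand), *Camk2n2* on chromosome 16 (20619215 to 20621287, minus strand) and *Camkv* on chromosome 9 (107935674 to 107949691, plus strand). *Camk2a* (60925618 to 60988152) and *Camk4* (32934931 to 33191228) are both on the plus strand of chromosome 18. All are protein-coding genes. The strand of the reads is not stated, and 72 exonic bases of *Camk4* overlap the antisense gene *2310026I22Rik*, which was listed at no more than 0.18 TPM. *Camk2n2* overlaps the opposite-strand gene *Gm49333* (up to 4.21 TPM) without sharing exonic bases.

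Values are given as scaled TPM. TPM is a transcript abundance per length and per library, so levels of different genes can be compared, and the TPM of a library were divided by its factor, which lay between 0.845 and 1.1 over the 16 libraries. The tables hold no counts per library, so how deeply each was sequenced is not known. The target of the shRNA is listed as *Gm20754* and was close to the limit of what TPM can show, with 0.117 to 0.235 scaled TPM in shRNA CON against 0 to 0.345 in shRNA RUS on day 5, and 0.238 to 0.661 against 0 to 0.5 on day 7. Its log2 fold change was −0.40 (limma SE 0.44, adjusted p = 0.519) on day 5 and −1.28 (limma SE 0.61, adjusted p = 0.114) on day 7. The study measured the knockdown by RT-qPCR and reports a lower, though not abolished, *RUS* level. The cultures held transcripts of NSC such as *Sox2* (means of 148 to 168 scaled TPM in the 4 groups) and *Nes* (31.4 to 102), and also *Gfap* (615 to 2790). *Gfap* is listed here with the astrocyte markers, but the study counts it as a marker of NSC and radial glia. It does not by itself identify astrocytes. Of the neuron markers, *Tubb3* had means of 142 to 239 scaled TPM, *Map2* of 114 to 307, *Stmn2* of 58.7 to 229, *Dcx* of 25.9 to 111 and *Gad1* of 21.7 to 52.4, whereas *Slc17a7*, a defining marker of mature excitatory neurons, stayed at or below 0.751 scaled TPM in every library and *Nefl* at or below 0.993.

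The knockdown was compared with the control on each day to see how CaM kinase transcripts respond to a knockdown of *RUS*. Among the CaMKII subunits, *Camk2a* was lower in shRNA RUS on both days, at 0.458 and 0.42 of the control, while *Camk2d* and *Camk2g* were higher on both days and *Camk2b* was higher on day 7. The inhibitor gene *Camk2n1* was higher on both days and *Camk2n2* on day 7. On day 5, 3 of the 8 genes were called higher and 1 lower (limma adjusted p under 0.05), in a comparison in which 32.7% of all 22581 genes tested were called (14.8% higher, 17.9% lower). On day 7, the calls were 5 higher and 2 lower, and 49.2% of all 24606 genes tested were called (23.4% higher, 25.8% lower). All 8 genes had a mean above 1 TPM, and calls were more common among genes of such levels. With a filter at a mean of 1 TPM, 22.4% of genes were called higher and 24.2% lower on day 5. The same filter gave 33% and 34% on day 7. The median log2 fold change of the 8 genes was 0.25 on day 5 and 0.46 on day 7, beside medians over all genes of −0.06 and −0.03. The study itself had singled out *Camk2a* on these libraries, so that its direction is not independent evidence.

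**Figure D1:**
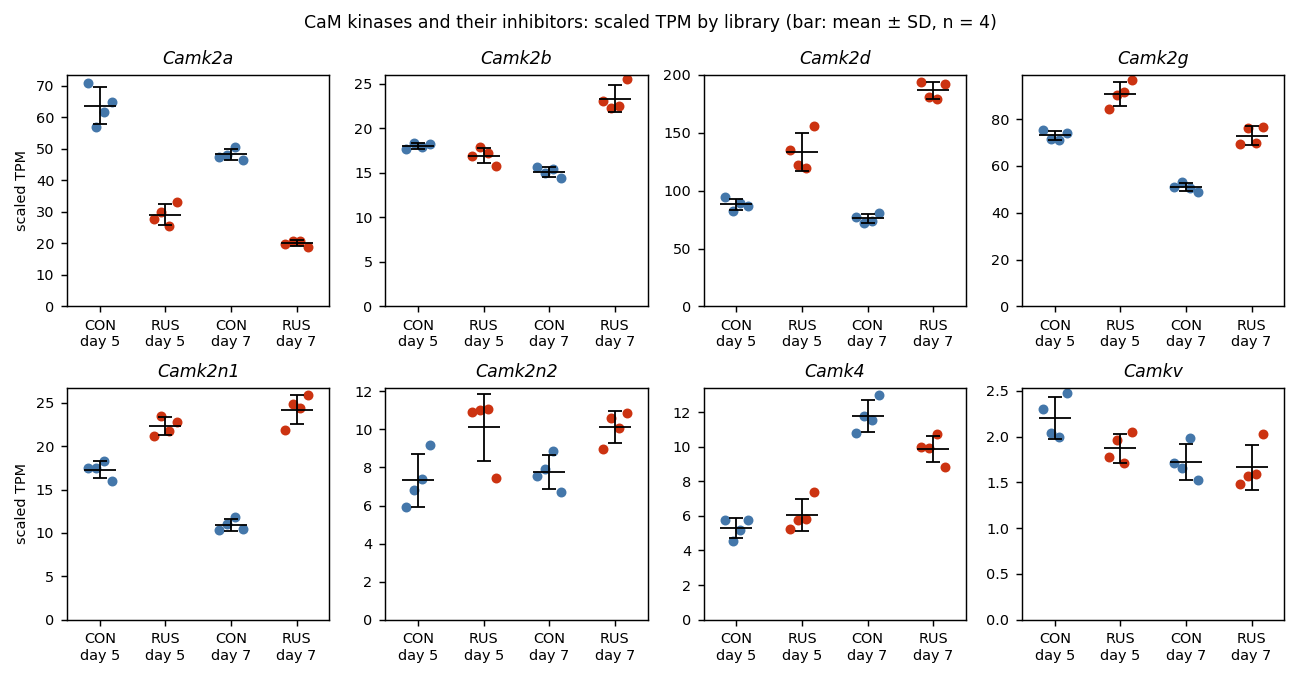
Scaled TPM (y axis, linear and starting at 0, own range for each gene) of the 8 genes in each library of the 4 groups (x axis). Points are libraries, and the bars show the mean ± SD of 4 libraries. *Camk2a* points of shRNA RUS lie below those of shRNA CON on both days, and *Camk2d* points of shRNA RUS on day 7 lie at 179 to 194, above all others of that gene.

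*Camk2a* had 70.9, 57.0, 61.6 and 64.9 scaled TPM in the shRNA CON libraries of day 5 and 27.9, 29.8, 25.5 and 33.2 in those of shRNA RUS. On day 7, it had 47.5, 48.2, 50.6 and 46.5 scaled TPM in the control and 19.6, 20.6, 20.9 and 18.9 in shRNA RUS. Every library of shRNA RUS lay below every control library of its day, and the knockdown libraries of day 5 also lay below the control libraries of day 7. The log2 fold change was −1.13 (limma SE 0.09, adjusted p = 4.97e-05) on day 5 and −1.25 (limma SE 0.05, adjusted p = 1.53e-07) on day 7. On day 5, 95.7% of all genes tested had a smaller absolute change than *Camk2a*, and on day 7 93.5%.

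*Camk2d*, the most abundant of the 4 subunits per length in every group, had 94.4, 82.2, 89.1 and 86.4 scaled TPM in the control and 135, 122, 119.9 and 156 in shRNA RUS on day 5. On day 7, the control libraries had 77.3, 72.3, 73.9 and 80.9 scaled TPM and the knockdown libraries 194, 181, 179 and 193. The groups did not overlap on either day, and the distance between them was wider on day 7. The log2 fold change was 0.59 (limma SE 0.09, adjusted p = 0.000798) on day 5 and 1.31 (limma SE 0.04, adjusted p = 7.98e-08) on day 7, a 2.48-fold higher level.

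*Camk2g*, the other broadly expressed subunit, had 71.0 to 75.5 scaled TPM in the control and 84.3 to 96.7 in the knockdown libraries on day 5, and 48.9 to 53.1 against 69.3 to 76.7 on day 7. The groups were again apart on both days, by a smaller factor than for *Camk2d*. The log2 fold change was 0.31 (limma SE 0.05, adjusted p = 0.0021) on day 5 and 0.53 (limma SE 0.05, adjusted p = 1.36e-05) on day 7. With TPM as deposited, without library factors, the call of *Camk2g* on day 5 was lost (log2 fold change 0.15, limma adjusted p = 0.153), and the median over all genes moved from −0.06 to −0.21. With quantile normalization the call was kept at 0.20.

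*Camk2b*, the second subunit typical of neurons, had 17.7, 18.3, 17.9 and 18.2 scaled TPM in the control and 16.9, 17.9, 17.2 and 15.8 in shRNA RUS on day 5. The groups overlapped and the log2 fold change was −0.09 (limma SE 0.06, adjusted p = 0.287). On day 7, the control libraries had 15.6, 15.03, 15.5 and 14.4 scaled TPM and those of the knockdown 23.1, 22.3, 22.5 and 25.5, with no overlap. The log2 fold change was 0.64 (limma SE 0.06, adjusted p = 1.17e-05), so that on this day *Camk2b* and *Camk2a* were called in opposite directions. With TPM as deposited, *Camk2b* was called lower on day 5 (log2 fold change −0.25, limma adjusted p = 0.011), where the median over all genes was −0.21.

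The inhibitor gene *Camk2n1* had 17.4, 17.5, 18.3 and 15.9 scaled TPM in shRNA CON on day 5 and 21.2, 23.5, 21.7 and 22.8 in shRNA RUS. On day 7, it had 10.3, 11.0, 11.8 and 10.4 scaled TPM in the control and 21.8, 24.8, 24.4 and 25.9 in the knockdown libraries. The control fell from day 5 to day 7 and the knockdown libraries did not, so that the groups, apart on both days, were further apart on day 7. The log2 fold change was 0.37 (limma SE 0.06, adjusted p = 0.00224) on day 5 and 1.16 (limma SE 0.07, adjusted p = 1.17e-06) on day 7. With TPM as deposited, the call on day 5 was lost (log2 fold change 0.21, limma adjusted p = 0.0685).

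*Camk2n2*, the second inhibitor gene, had 5.92, 6.82, 7.37 and 9.19 scaled TPM in the control and 10.9, 11.0, 11.1 and 7.46 in shRNA RUS on day 5. Replicate 4 of shRNA RUS lay within the control range, replicate 4 of shRNA CON was the highest control library, and the comparison missed the threshold (log2 fold change 0.46, limma SE 0.17, adjusted p = 0.06). It passed without replicate 4 of shRNA RUS (0.60 on the log2 scale, limma adjusted p = 0.00849) and without replicate 4 of shRNA CON (0.58), and also with a filter at a mean of 1 TPM (0.46), with quantile normalization (0.58) or in a fit over all 16 libraries (0.46). On day 7, the control libraries had 6.73 to 8.87 scaled TPM and the knockdown libraries 8.98 to 10.9, adjoining ranges without overlap. The log2 fold change on day 7 was 0.40 (limma SE 0.10, adjusted p = 0.00697).

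*Camk4*, the nuclear kinase, had 5.76, 4.56, 5.19 and 5.73 scaled TPM in the control and 5.26, 5.76, 5.82 and 7.37 in shRNA RUS on day 5, with overlapping groups (log2 fold change 0.18, limma SE 0.12, adjusted p = 0.293). On day 7, it had 10.8, 11.8, 11.6 and 13.0 scaled TPM in the control and 9.96, 9.93, 10.7 and 8.84 in the knockdown libraries. The nearest libraries, 10.8 and 10.7 scaled TPM, almost met, and the log2 fold change was −0.24 (limma SE 0.08, adjusted p = 0.0265). This call was lost without replicate 2 or 4 of either shRNA (log2 fold changes of −0.24 and −0.20 without those of shRNA CON, −0.24 and −0.19 without those of shRNA RUS) in a fit over all 16 libraries (−0.25) and with the replicate number as a block (−0.24, limma adjusted p = 0.0715).

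*Camkv* was the least abundant of the 8 genes per length in every group. It had 2.00 to 2.48 scaled TPM in shRNA CON and 1.71 to 2.05 in shRNA RUS on day 5, and 1.53 to 1.99 against 1.48 to 2.03 on day 7. The groups overlapped on both days, with log2 fold changes of −0.22 (limma SE 0.12, adjusted p = 0.194) on day 5 and −0.04 (limma SE 0.14, adjusted p = 0.856) on day 7.

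On day 5, the libraries of shRNA CON and shRNA RUS did not overlap for 4 of the 8 genes, *Camk2a*, *Camk2d*, *Camk2g* and *Camk2n1*, when scaled within the day, as was the case for 32.8% of all genes tested. On day 7 this held for 6 of the 8, these 4 together with *Camk2b* and *Camk2n2*, and for 47% of all genes tested. *Camk4* is not among the 6, since its groups overlapped when the libraries were scaled within day 7.

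**Figure D2:**
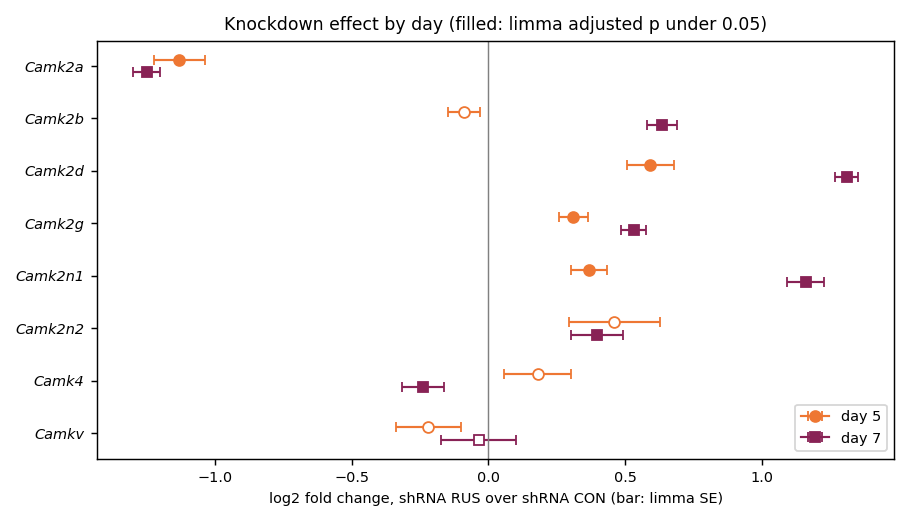
Log2 fold change of shRNA RUS over shRNA CON (x axis) for the 8 genes (y axis) on day 5 (circles) and day 7 (squares). Bars are limma standard errors, and filled symbols have a limma adjusted p under 0.05. *Camk2a* is far to the left on both days (−1.13 and −1.25), whereas *Camk2d* and *Camk2n1* move from 0.59 and 0.37 on day 5 to 1.31 and 1.16 on day 7.

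The opposite changes of *Camk2a* and *Camk2d* altered which subunits made up the CaMKII transcripts. The share of each subunit in the summed TPM of the 4 genes was taken within each library, a value that no library factor can change. The alpha share was 26.2 ± 1.08% (SD, n = 4) in the control and 10.8 ± 0.645% in shRNA RUS on day 5, and 25.3 ± 0.92% and 6.61 ± 0.492% on day 7. The delta share was 36.3 ± 0.741% and 49.2 ± 2.5% on day 5, and 40 ± 1.85% and 61.6 ± 1.27% on day 7. The 2 control groups thus had a like alpha share on both days, and no library of shRNA RUS came near it.

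The gamma share was 30.1 ± 0.929% in the control and 33.7 ± 2.01% in shRNA RUS on day 5 and 26.8 ± 1.08% and 24.1 ± 1.14% on day 7. The beta share stayed within 5.24 to 8.17% in all 16 libraries. The higher *Camk2b* level of the knockdown on day 7 therefore did not show as a higher share. The ratio of *Camk2a* to *Camk2d* was 0.722 ± 0.0338 in the control and 0.219 ± 0.017 in shRNA RUS on day 5, and 0.635 ± 0.0495 and 0.107 ± 0.00907 on day 7. The ratio of *Camk2a* to *Camk2b*, the pair typical of neurons, was 3.54 ± 0.376 and 1.72 ± 0.264 on day 5 and 3.18 ± 0.101 and 0.861 ± 0.0882 on day 7, so that on day 7 *Camk2b* exceeded *Camk2a* in every knockdown library (ratios of 0.74 to 0.928).

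**Figure D3:**
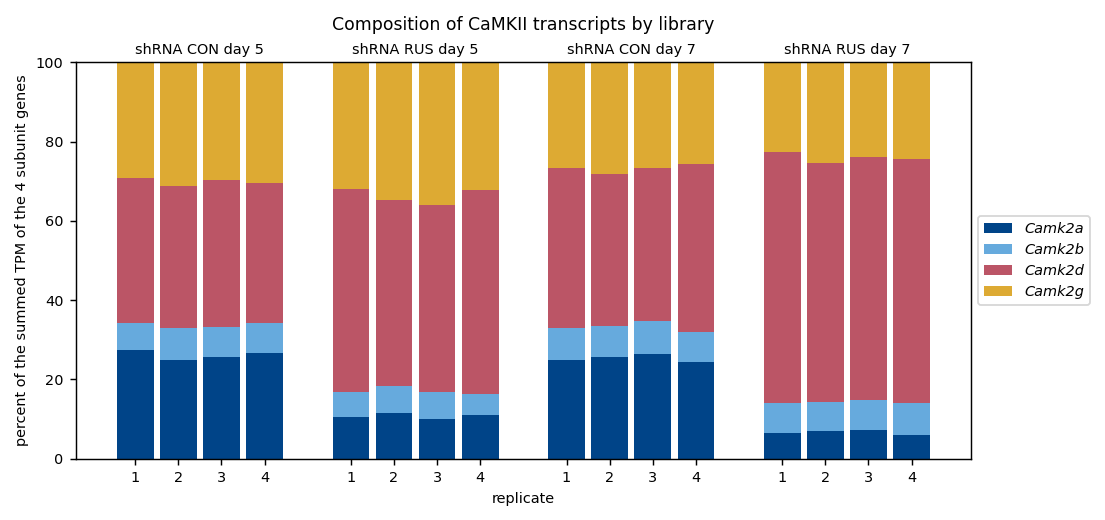
Share of each subunit gene in the summed TPM of *Camk2a*, *Camk2b*, *Camk2d* and *Camk2g* (y axis, percent) in each of the 16 libraries (x axis, replicates of each group). The *Camk2a* share is 24.4 to 27.4% in the 8 control libraries, 10 to 11.5% in shRNA RUS on day 5 and 6.02 to 7.14% on day 7, where *Camk2d* takes up 60.4 to 63.4%.

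The summed level of the 4 subunit genes was not lower in the knockdown. It was 243 ± 12.2 scaled TPM in the control and 270 ± 21.4 in shRNA RUS on day 5 (ranges 229 to 259 and 254 to 302, overlapping), and 190 ± 1.18 and 303 ± 8.89 on day 7 (189 to 191 and 293 to 314). The summed level of both inhibitor genes was 24.6 ± 1.0 and 32.4 ± 1.75 scaled TPM on day 5 and 18.7 ± 1.53 and 34.4 ± 2.54 on day 7. Set against the CaMKII sum, the inhibitors came to 10.2 ± 0.771% and 12.1 ± 1.47% on day 5 and 9.78 ± 0.796% and 11.4 ± 0.835% on day 7. The ranges of this percentage overlapped between the shRNAs on both days (9.03 to 10.7% and 10 to 13.3%, then 9 to 10.8% and 10.1 to 11.8%).

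The order of the levels per length changed accordingly. In shRNA CON on day 5 it ran from *Camk2d* (88.0 ± 5.13 scaled TPM) over *Camk2g* (73.0 ± 2.1), *Camk2a* (63.6 ± 5.84), *Camk2b* (18 ± 0.31) and *Camk2n1* (17.3 ± 0.968) to *Camk2n2* (7.33 ± 1.38), *Camk4* (5.31 ± 0.564) and *Camkv* (2.21 ± 0.229). The ranges of *Camk2b* and *Camk2n1* overlapped. Other neighbours did not, though the nearest libraries of *Camk2g* (70.96) and *Camk2a* (70.92) almost met. In shRNA RUS on day 7 *Camk2d* (187 ± 7.53 scaled TPM) and *Camk2g* (73.0 ± 3.95) again led, followed by *Camk2n1* (24.2 ± 1.72), *Camk2b* (23.3 ± 1.47) and only then *Camk2a* (20.0 ± 0.922). *Camk2n2* (10.1 ± 0.832) and *Camk4* (9.86 ± 0.77) came next, ahead of *Camkv* (1.67 ± 0.245). Here the ranges of *Camk2n1* and *Camk2b* overlapped, as did those of *Camk2n2* and *Camk4*.

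The days were compared within each shRNA in a fit over all 16 libraries, to see how the 8 genes move once differentiation has started. The comparisons share the day 5 or day 7 libraries with those of the knockdown, so their values are set side by side only. In shRNA CON, 1 of the 8 genes rose and 6 fell, and 48.5% of all 23789 genes tested were called (26.9% higher, 21.6% lower). *Camk4* rose, with a log2 fold change of 1.14 (limma SE 0.10, adjusted p = 2.44e-07) from 5.31 ± 0.564 to 11.8 ± 0.908 scaled TPM. *Camk2n1* fell by 0.66 (limma SE 0.06, adjusted p = 4.41e-07), *Camk2g* by 0.52 (limma SE 0.05, adjusted p = 2.96e-07) and *Camk2a* by 0.40 (limma SE 0.08, adjusted p = 0.000446) on the log2 scale. *Camk2b*, *Camk2d* and *Camkv* fell by 0.25, 0.21 and 0.34 on the log2 scale (limma adjusted p = 0.00089, 0.0237 and 0.0295), and these 3 calls were lost with TPM as deposited (−0.10, −0.06 and −0.20), where *Camk2a* kept its call at −0.24. That of *Camk2d* was also lost with quantile normalization (−0.12, limma adjusted p = 0.252), and that of *Camkv* with no filter on low genes (limma adjusted p = 0.0504), while quantile normalization gave *Camkv* −0.57. Both depended on single libraries as well: *Camk2d* lost its call without replicate 1 of day 5 or replicate 2 or 3 of day 7 (log2 fold changes of −0.18, −0.19 and −0.20), and *Camkv* without replicate 1 or 4 of day 5 or replicate 1, 2 or 4 of day 7 (−0.34 to −0.29). *Camk2n2* did not pass the test (log2 fold change 0.09, limma SE 0.14, adjusted p = 0.621).

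In shRNA RUS, 3 of the 8 genes rose from day 5 to day 7 and 2 fell, and 60.8% of all genes tested were called (35% higher, 25.8% lower). *Camk4* rose here too, with a log2 fold change of 0.70 (limma SE 0.10, adjusted p = 2.32e-05). *Camk2d* and *Camk2b*, which had fallen in the control, rose by 0.49 (limma SE 0.07, adjusted p = 1.89e-05) and 0.46 (limma SE 0.05, adjusted p = 1.49e-06) on the log2 scale. *Camk2a* fell by 0.53 (limma SE 0.08, adjusted p = 1.61e-05) and *Camk2g* by 0.31 (limma SE 0.05, adjusted p = 3.77e-05) on the log2 scale. The remaining genes did not pass the test, with log2 fold changes of 0.12 for *Camk2n1*, 0.02 for *Camk2n2* and −0.17 for *Camkv* (limma adjusted p = 0.126, 0.933 and 0.249); without replicate 1 of day 7, *Camk2n1* passed (0.17). TPM as deposited moved the median of all genes in this comparison from 0.13 to 0.42, and in that setting *Camk2a* (−0.21) and *Camk2g* (0.012) lost their calls, while *Camk2n1* (0.44) and *Camk2n2* (0.34) gained one and *Camk2b* and *Camk2d* had 0.78 and 0.82. With quantile normalization, the call of *Camk2g* was lost too (−0.12, limma adjusted p = 0.0838), *Camkv* was called lower (−0.47, limma adjusted p = 0.00243) and *Camk2d* had 0.85.

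Whether the knockdown acted differently on the days was tested as the difference of its log2 fold changes, day 7 minus day 5, in the same fit, in which 29.8% of all genes were called (15.2% positive, 14.6% negative). The difference was positive and called for *Camk2n1* (0.78, limma SE 0.09, adjusted p = 2.31e-05), *Camk2b* (0.71, limma SE 0.07, adjusted p = 1.02e-05) and *Camk2d* (0.70, limma SE 0.10, adjusted p = 0.000139). For *Camk2a* it was −0.14 (limma SE 0.11, adjusted p = 0.37), with a 95% interval of −0.37 to 0.09. *Camk2g* (0.21, limma SE 0.07, adjusted p = 0.0319) and *Camk4* (−0.43, limma SE 0.15, adjusted p = 0.0364) also passed, but these calls depended on settings and on single libraries. That of *Camk2g* was lost in a fit with no trend (limma adjusted p = 0.0571), though the difference was 0.38 with TPM as deposited and 0.33 with quantile normalization, both called. It was also lost without replicate 1 or 4 of shRNA CON or 1 or 2 of shRNA RUS on day 5, and without replicate 1, 3 or 4 of shRNA CON or 2 or 4 of shRNA RUS on day 7 (differences of 0.17 to 0.21). That of *Camk4* was lost with TPM as deposited (−0.26, limma adjusted p = 0.264) and with no filter on low genes (limma adjusted p = 0.0559). It was also lost without replicate 2 or 3 of shRNA CON or 4 of shRNA RUS on day 5, and without replicate 2, 3 or 4 of shRNA CON or 1, 2 or 4 of shRNA RUS on day 7 (−0.44 to −0.34). *Camk2n2* (−0.08) and *Camkv* (0.17) did not pass (limma adjusted p = 0.81 and 0.487, 95% intervals of −0.50 to 0.35 and −0.19 to 0.54).

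The genes around the CaM kinases were counted in 7 lists of 45 genes, all of which were tested. In shRNA RUS 8 of them were called higher and 9 lower on day 5 (37.8%, beside 32.7% of all genes), and on day 7, 24 higher and 7 lower (68.9%, beside 49.2% of all genes). On day 5 the genes called higher were 4 with TPM as deposited (7.83% of all genes) and 4 with the replicate number as a block (9.88%), beside 14.8% of all genes in the fit as reported. Most of the 45 genes had a mean above 1 TPM, where calls were more common. Under a filter at that level, 22.4% of genes were called higher and 24.2% lower on day 5. On day 7 these shares were 33% and 34%. Beside them, the share of the 45 genes called was not clearly higher on either day. The median log2 fold change of the 45 genes was −0.04 on day 5 and 0.21 on day 7. Of the 11 CaMKII binding partners and synaptic substrates, such as NMDA receptor subunits and synapsins, none was called higher and 1 lower on day 5, and 9 were called higher and none lower on day 7. Of the 8 genes of the CREB arm, to which CaMKIV signals, 1 was called higher and 1 lower on day 5 and 5 higher and none lower on day 7. The 7 calcineurin subunits and regulators, a calmodulin-dependent phosphatase, had 1 gene higher and 3 lower on day 5 and 3 higher and 2 lower on day 7. Of the 11 other CaM kinases and upstream kinases, 2 were higher and 2 lower on day 5, and 4 higher and 4 lower on day 7.

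*Calm2* and *Calm3* encode calmodulin, the calcium sensor, and had means of 389 to 849 scaled TPM over the 4 groups. *Calm3* had 602 to 689 scaled TPM in shRNA CON and 814 to 886 in shRNA RUS on day 5, with no overlap, and 642 to 709 against 627 to 714 on day 7. Its log2 fold change was 0.39 (limma SE 0.06, adjusted p = 0.00115) on day 5 and 0.03 (limma SE 0.05, adjusted p = 0.616) on day 7, and the difference between the days was called (−0.37, limma adjusted p = 0.00195). With quantile normalization the call of *Calm3* on day 5 (0.15, limma adjusted p = 0.0664) and that of the difference (−0.05, limma adjusted p = 0.665) were lost, and the call was made on day 7 (0.13, limma adjusted p = 0.0261).

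*Calm2* had 377 to 401 scaled TPM in shRNA CON and 417 to 464 in shRNA RUS on day 5, and 444 to 476 against 414 to 481 on day 7. It was called higher on day 5 (log2 fold change 0.17, limma adjusted p = 0.0323) and not on day 7 (−0.05, limma adjusted p = 0.425). Its call on day 5 was lost with TPM as deposited (0.0076), with quantile normalization (−0.03, a change of sign), with the replicate number as a block (limma adjusted p = 0.15), and without any control replicate or replicate 1 or 3 of shRNA RUS (0.14 to 0.18). On day 7 it was called lower without replicate 1 of shRNA RUS (−0.10, limma adjusted p = 0.0491).

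*Camk1d*, a CaMKI isoform, was the sole gene of the lists that was called in the same direction on both days with a change of at least 1 on the log2 scale. It had 8.82 to 10.3 scaled TPM in shRNA CON and 3.24 to 5.21 in shRNA RUS on day 5, and 17.4 to 17.8 against 7.25 to 9.05 on day 7. The groups did not overlap, and the log2 fold change was −1.23 (limma SE 0.13, adjusted p = 0.00017) on day 5 and −1.11 (limma SE 0.07, adjusted p = 1.84e-06) on day 7. Unlike *Camk2a*, whose control level was lower on day 7, its control mean was higher on day 7 (17.6 scaled TPM, beside 9.49 on day 5).

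Among the small proteins with an IQ motif, *Gap43* was higher on both days (log2 fold changes 0.52 and 0.54, limma adjusted p = 0.000155 and 2.19e-05) and *Pcp4* lower (−0.48 and −0.30, limma adjusted p = 0.0185 and 0.00865). *Gap43* also stands among the neuron markers below. The call of *Pcp4* on day 5 was lost without replicate 2 or 3 of shRNA CON (−0.44 and −0.42). *Pcp4l1* was lower on day 5 (−0.27, limma adjusted p = 0.0136) and had a log2 fold change of 0.12 on day 7 (limma adjusted p = 0.186, called with quantile normalization at 0.18). *Nrgn*, neurogranin of mature neurons, had group means of 0.144 to 0.704 scaled TPM and did not pass on either day (limma adjusted p = 0.902 and 0.362). Of the CaM kinase phosphatases, which reverse the activating phosphorylation, *Ppm1f* was higher on both days (0.48 and 0.52, limma adjusted p = 0.000324 and 3.01e-06). *Ppm1e* was higher on day 7 (0.39, limma adjusted p = 6.84e-05) and had a log2 fold change of −0.11 on day 5 (limma adjusted p = 0.382).

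**Figure D4:**
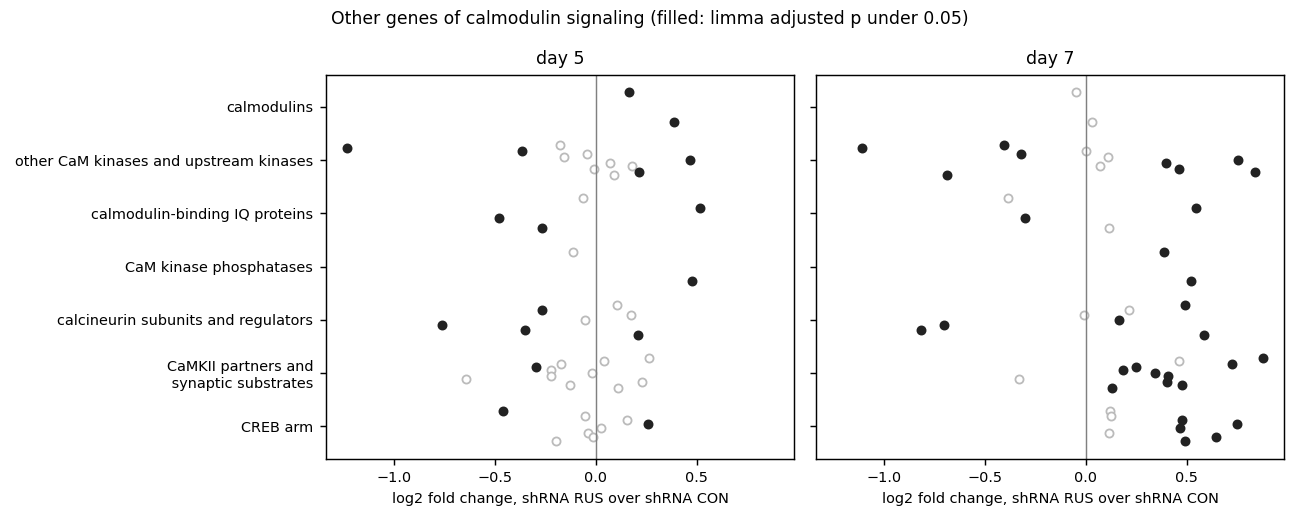
Log2 fold change of shRNA RUS over shRNA CON (x axis) for 45 other genes of calmodulin signaling, each a point, in 7 lists (y axis) in the panels of day 5 and day 7. Filled points have a limma adjusted p under 0.05. On day 7, 9 of 11 CaMKII partners and 5 of 8 genes of the CREB arm are filled and to the right of 0. *Calm2* and *Calm3* are filled on day 5 and open on day 7, but the filled call of *Calm2* was lost with TPM as deposited and both with quantile normalization.

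Markers of the cell types in the cultures moved with the knockdown beside these genes. In bulk libraries, fewer cells of a type and less RNA per cell cannot be told apart. The summed level of 15 neuron markers was 662 to 764 scaled TPM in shRNA CON and 725 to 789 in shRNA RUS on day 5 and 866 to 964 against 858 to 1000 on day 7, overlapping on both days. Of these 15 markers, 3 were called higher and 4 lower on day 5 and 7 higher and 4 lower on day 7. For this and the marker lists below, the shares over all genes tested were 14.8% higher and 17.9% lower on day 5. On day 7 they were 23.4% and 25.8%. Abundant markers within the sum moved in opposite directions on day 5, when the means of *Stmn2* were 153 scaled TPM in shRNA CON and 229 in shRNA RUS and those of *Map2* were 156 and 114 (limma adjusted p = 0.00021 and 0.0156). All 8 proliferation markers were called lower on both days, with sums of 728 to 755 scaled TPM in shRNA CON and 407 to 453 in shRNA RUS on day 5 and of 743 to 754 and 299 to 335 on day 7. All 8 microglia markers were called lower on day 7 (sums of 332 to 369 and 161 to 204 scaled TPM), whereas on day 5 1 was higher and 2 were lower (145 to 156 and 135 to 185). The part of these shifts in the values of the 8 genes was not tested.

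The sum of 9 astrocyte markers was higher in shRNA RUS, at 6173 to 6435 and 7899 to 8140 scaled TPM on day 5 and 3628 to 3796 and 4377 to 4556 on day 7. Of these, 3 were called higher (*Gfap*, *Aldoc* and *Glul*) and 1 lower (*Slc1a2*) on day 5, and 4 higher and 2 lower (*Slc1a3* and *S100b*) on day 7. The rise of the sum on day 5 was carried by *Gfap* (means of 1850 and 2790 scaled TPM), *Aldoc* (1330 and 1970) and *Glul* (776 and 976). *Slc1a2* had means of 86.1 and 55.3, and 5 markers were not called. The study counts *Gfap*, *Slc1a3* (Glast) and *Glul* as radial glia markers, so the list does not separate astrocytes from radial glia. The sum of 7 NSC markers was 11570 to 13730 and 16830 to 20380 scaled TPM on day 5 and 6062 to 6390 and 6448 to 7041 on day 7, with 3 higher and 3 lower on day 5 and 2 higher and 3 lower on day 7. Nearly all of this sum came from *Vim* (means of 9180 and 13500 scaled TPM on day 5) and *Fabp7* (3620 and 5150), whereas *Nes*, *Hes1* and *Hes5* were called lower on both days. For 8 markers of the oligodendrocyte lineage, none was called higher, and 4 were lower on day 5 (sums of 247 to 329 and 166 to 254 scaled TPM) and 6 on day 7 (375 to 412 and 239 to 263). The sum of 9 fibroblast and vascular markers, of which *Lum* and *Cldn5* were too close to 0 to be tested, was 35.2 to 39.4 and 31.6 to 43.5 scaled TPM on day 5 and 20.9 to 22.8 and 34.1 to 37.9 on day 7, without overlap on day 7. Of these, 1 was called higher and 1 lower on day 5 and 3 higher and 1 lower on day 7, with *Pdgfrb* 2.49-fold higher on day 7 (limma adjusted p = 2.44e-07). The part of these lists in the values of the CaM kinase genes was likewise not tested.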

How the data were processed

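PolyA RNA of 16 libraries was sequenced on an Illumina NextSeq. The authors mapped the reads with STAR (version not given in the sources used here) to mm10 with a GRCm38 transcript table and obtained abundances with RSEM. Deposited were, for each day, TPM per library, which they had scaled within each library, and the columns of their DESeq2 comparison (log2 fold change, its error, test statistic and p-values), which were not used. The base mean among these, the authors' mean normalized signal of a gene, was read for the 8 genes and *Gm20754* only and is not printed. It is a mean over the libraries of a day, and TPM keeps no read counts, so sequencing depth per library is unknown. On day 5, 3 lines without a gene were dropped, and 106 lines that differ between the tables were left out of comparisons across days.

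TPM were divided by median-ratio library factors (genes with at least 1 TPM in all libraries), and log2 was taken after adding 0.1. Genes were tested if their mean reached 0.1 TPM, by limma 3.58.1 in R 4.3.3 (lmFit, then eBayes with its trend option, two-sided) and Benjamini-Hochberg adjustment over all genes at a threshold of 0.05. Each day was fitted by itself for the knockdown, and all 16 libraries together for the days and the difference between them. Levels are shown with the factors of all 16 libraries. Fold changes on this scale understate those of low genes. The test was checked on simulated data. Python 3.11.15, pandas 2.3.3 and matplotlib 3.10.9 served for sequences and figures.

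All 8 genes are named whatever their values, and *Gm20754* as a check of the target. Of the 45 pathway genes, counts are given, with values for those called on both days in the same direction with a change of at least 1 on the log2 scale on either day and for lists of up to 4 genes. For each of the 8 genes, the 3 genes with the highest Pearson r over the 16 libraries are named, among genes that average 1 TPM or more. The 8 genes, the lists and these rules were chosen with earlier results of these data known. Alternatives were other pseudocounts, filters and scalings, a fit with no trend, the replicate number as a block, 1 fit over all libraries, and leaving out each library in turn. The settings for single pathway genes were added after seeing the data. A gene of the lists is not reported here and was left out of their counts.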

Additional observations from a re-analysis of the deposited data

Results flagged for a closer look

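*Camk2n2* in replicate 4 of shRNA RUS on day 5 stood apart from the other 3 libraries of its group, with 7.459 scaled TPM beside 10.91 to 11.09. Its distance to the nearest library took up 0.95 of the range of the group, beyond the critical value of Dixon's test for 4 libraries at the 95% level. It was the sole such library among the 32 groups of 4 values checked for the 8 genes, and chance flags about 1 group in 20. The same library had the highest *Gm20754* value of day 5 (0.345 scaled TPM), though that gene is close to the floor. Without this library, 17.4% of all genes were called higher and 20.3% lower in the knockdown on day 5, beside 14.8% and 17.9% with it.

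For 5 of the 8 genes the knockdown effect of day 7 differed from that of day 5 by limma's test of the difference, which called 29.8% of all genes. The effect on day 7 minus that on day 5 was 0.71 for *Camk2b*, 0.703 for *Camk2d*, 0.208 for *Camk2g* and 0.779 for *Camk2n1* on the log2 scale, and −0.434 for *Camk4*. The calls of *Camk2g* and *Camk4* were lost under 10 and 11 of the 24 alternatives, and those of the other 3 genes under none of them. In *Camk2b* and *Camk2n1* the control fell from day 5 to day 7, while the knockdown libraries rose (*Camk2b*, by 0.46 on the log2 scale) or did not pass the test (*Camk2n1*, 0.12).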

How the results depend on the processing

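Over all alternatives, 780 of 848 values of the 8 genes kept their direction and their side of the threshold, 44 lost the call, 10 gained one and 14 changed sign. The knockdown calls of *Camk2a* and *Camk2d* on both days and of *Camk2b*, *Camk2g*, *Camk2n1* and *Camk2n2* on day 7 held under each of the 17 alternatives. With TPM as deposited, the share of higher calls among all genes moved from 45.4 to 22.7% on day 5, from 55.5 to 71.4% between the days in the control, from 57.5 to 76.9% in the knockdown and from 51.1 to 73.5% in the difference between the days, while for the knockdown on day 7 it was 47.6 and 47.8%. In that setting, of the 8 genes 1 was called higher and 2 lower in the knockdown on day 5, with 4 pathway genes higher, beside 7.83% of all genes higher and 26.7% lower. Likewise, 3 of the 8 were lower from day 5 to day 7 in the control (14.4% of all genes), 5 were higher and 0 lower in the knockdown (49.6% and 14.9%), and in the difference between the days 0 of the 8 and 2 pathway genes were lower (8.63%). Quantile normalization left 3 pathway genes lower in that difference (14.3% of all genes), and without a filter 0 of the 8 were lower (8.24%). Same-numbered libraries did not deviate together (correlations of −0.105 to 0.00196 on day 5 and −0.00376 to 0.0325 on day 7), so the numbers do not pair them. With the replicate number as a block, 4 pathway genes were called higher on day 5 (9.88% of all genes), and 1 of the 8 genes was lower on day 7 (24% of all genes) instead of 2, since *Camk4* missed the threshold (limma adjusted p = 0.0715). The fit over 16 libraries likewise left 1 lower on day 7 (25.8% of all genes). With each library left out in turn, 1 to 2 were lower on day 7 (23.6 to 24.8% of all genes) and 0 to 1 in the difference between the days (12.9 to 16.3%). The cause of these shifts was not tested.

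Among the 8 genes, signs changed only for values that did not pass the test, except for *Camk2g* between the days in the knockdown, which became 0.012 with TPM as deposited. That setting also turned *Camkv* between the days in the knockdown (0.14) and the differences of *Camk2a* (0.0343) and *Camk2n2* (0.0945). Quantile normalization turned *Camkv* on day 7 (0.0507) and *Camk2n2* between the days in the control (−0.0356) and the knockdown (−0.147). Leaving out 1 library gave −0.126 to 0.0321 for *Camkv* on day 7 (above 0 without replicate 3 of shRNA CON or, at 0.0179, without replicate 1 of shRNA RUS). For *Camk2n2* it gave −0.00249 to 0.207 between the days in the control (below 0 without replicate 1 of day 5), −0.121 to 0.0743 in the knockdown (below 0 without replicate 4 of day 5 and, at −0.00372 and −0.0147, without replicates 2 and 4 of day 7) and −0.215 to 0.0203 in the difference (above 0 without replicate 1 of shRNA CON on day 5). Subunit shares moved by less than their spread. The depth of each library is unknown, so no counting error in a single library can be given for any of the 8 genes.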

Other observations

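The genes whose pattern over the 16 libraries was most like that of each CaM kinase gene were named among 15898 genes by Pearson's r of the log2 values, a description in which points of a group share their shRNA and day. For *Camk2a* these were *Ccnf* (r = 0.992), *Ywhae* (0.991) and *Incenp* (0.987). *Ccnf* encodes cyclin F, and *Incenp* a subunit of the chromosomal passenger complex of mitosis. For *Camk2d* they were *Gpam* (0.994), which starts the synthesis of glycerolipids, *Scarb2* (0.994), a lysosomal membrane protein, and *Arid5b* (0.988). *Camk2n1* was nearest to *Zcchc24* (0.99), *Bcl6* (0.982), a transcriptional repressor, and *Ank* (0.981), and *Camk2g* to *Tead3* (0.987), *Nfil3* (0.986) and *Arl8a* (0.984).

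The nearest genes of *Camk2b* were the non-coding *Pantr2* (0.967), *Slx1b* (0.964) and *Parp3* (0.962), and those of *Camk2n2* were *Tlnrd1* (0.966), *Vps37d* (0.958) and *Irf2bp1* (0.953). *Camk4* was nearest to *Gm43789* (0.977), *Cds1* (0.975) and *Cmya5* (0.972). *Camkv*, the least abundant, had the lowest values, with *Ppp1r3f* (0.918), *Pick1* (0.876) and *Tmem179* (0.868). Among the 8 genes themselves, r over the 16 libraries ranged from −0.893 for *Camk2a* and *Camk2d* to 0.864 for *Camk2d* and *Camk2n1*, with 0.862 for *Camk2g* and *Camk2n1*.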
